A study of Mus musculus with 16 samples.

Results

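The genes described here are 25 genes of GABA signalling: 11 subunits of the GABA-A receptor, both subunits of the GABA-B receptor, the enzymes that make and break down GABA, its vesicular and plasma membrane transporters, the chloride cotransporters of neurons and proteins of the inhibitory postsynaptic site. The rule that chose them used gene names and no measured value, although earlier results of these data were known when the list was made. All 25 were found among the 35328 genes counted. The list is not complete: some subunit and transporter genes are not analysed here, so shares among the listed genes are not shares of all receptors.

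The question of the study was whether regular caffeine intake alters the hippocampus at rest and its response to learning. Male C57BL6/J mice, 8 to 9 weeks old at the start and without a stated genetic alteration, drank either water or water with 0.3 g/L caffeine for 2 weeks. Home cage mice rested, whereas learning mice were trained for 3 days to find a hidden platform in the Morris water maze, a task of spatial memory, and their tissue was taken 1 hour after the last training. Each of the 16 RNA-Seq libraries was made from the dorsal hippocampus of 1 mouse, and each of the 4 groups, home cage or learning with water or caffeine, holds 4 mice. The learning groups differed from the home cage groups in swimming as well as in training, and these cannot be told apart.

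GABA is the main inhibitory transmitter of the adult brain. It is made from glutamate in interneurons, packed into vesicles, and opens GABA-A receptors, pentameric chloride channels whose subunits set their location and kinetics, or activates GABA-B receptors, which signal through G proteins. The direction of the chloride current depends on the balance between KCC2 (Slc12a5), which exports chloride from neurons, and NKCC1 (Slc12a2), which imports it. In the hippocampus, receptors with the alpha5 subunit (Gabra5) and with the delta subunit (Gabrd) lie mostly outside synapses and carry tonic inhibition, and those with alpha2 (Gabra2) are common at synapses.

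Promoter windows of RefSeq (build GRCm38.p6, 250 bases before to 50 bases after a transcript start) were given for 22 of the 25 genes, 29 windows in all. They were searched on both strands for 3 motifs. The cyclic AMP response element TGACGTCA was in 0 of the 29 windows and in 1.79% of all 32851 mouse windows. The motif of the Egr family of activity-induced transcription factors, GCGGGGGCG or GCGTGGGCG, was in 1 of 29 windows, that of Gad1, and in 3.47% of all windows. The TATA box letters TATAAA were in 4 of 29 windows and in 13.6% of all windows. The Gad1 window (chr2:70561879-70562178, plus strand) is shown because it was the single match for the Egr motif, whose letters stand in capitals as read on the complementary strand. The windows of Gabra4 (chr5:71658259-71658558, minus strand) and Gabrb1 (chr5:71657671-71657970, plus strand, 1 of its starts) are shown because the 5′ ends of these neighbours overlap on opposite strands, and they hold none of the 3 motifs. The Gabra4 and Gabrb1 windows shown share 0 bases with each other. All 3 windows are written 5′ to 3′ along the strand of the gene.
Gad1: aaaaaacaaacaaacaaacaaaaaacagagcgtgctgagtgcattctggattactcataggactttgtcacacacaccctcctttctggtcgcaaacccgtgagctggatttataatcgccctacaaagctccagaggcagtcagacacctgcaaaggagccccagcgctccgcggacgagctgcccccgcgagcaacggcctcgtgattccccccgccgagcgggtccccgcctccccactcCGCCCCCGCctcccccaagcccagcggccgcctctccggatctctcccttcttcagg
Gabra4: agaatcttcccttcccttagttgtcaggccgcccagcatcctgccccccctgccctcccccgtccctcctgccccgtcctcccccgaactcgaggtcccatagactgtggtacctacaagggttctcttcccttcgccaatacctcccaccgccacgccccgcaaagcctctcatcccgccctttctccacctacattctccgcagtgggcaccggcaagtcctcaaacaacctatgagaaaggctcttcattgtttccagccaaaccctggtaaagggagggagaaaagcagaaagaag
Gabrb1: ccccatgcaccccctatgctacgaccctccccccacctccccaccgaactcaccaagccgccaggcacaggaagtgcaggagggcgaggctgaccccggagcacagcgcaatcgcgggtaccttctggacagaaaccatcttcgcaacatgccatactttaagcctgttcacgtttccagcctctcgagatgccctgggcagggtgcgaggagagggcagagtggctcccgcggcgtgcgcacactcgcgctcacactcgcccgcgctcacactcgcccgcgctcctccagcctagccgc

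Gabra4 and Gabrb1 also share 46 bases of exon on opposite strands, with Gabra2 and Gabrg1 further along the same region of chromosome 5. Gabra5 and Gabrg3 are neighbours on chromosome 7, and Gabre, Gabra3 and Gabrq lie together on chromosome X. Exons of Gabra5, Slc32a1 and Gphn overlap noncoding genes of the opposite strand, over 4.98%, 24.9% and 3.92% of their exon length. The libraries keep the strand of the RNA, but a strand setting of the counting was not given in the sources used here, so the counts of these 5 genes are uncertain by the reads in the shared stretches.

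Between 23078094 and 49949281 reads were counted on genes per library. The median was 30203502.5 in home cage water, 34736321.5 in home cage caffeine, 37367856.5 in learning water and 42497897.5 in learning caffeine mice, so the learning libraries were deeper. Values are CPM, counts relative to the library total after TMM scaling, and, to compare genes with each other, CPM per kb of exon. Replicates differed beyond counting noise in all 24 pairs within groups (chi-square per degree of freedom 5.65 to 33.2), so none was treated as a repeat of another. The 9 hippocampal field markers were all detected and summed to between 1187 and 1650 CPM. As this is bulk tissue, fewer cells of a type and less RNA per cell cannot be told apart. Marker sums of tissue next to the hippocampus varied, above all those of choroid plexus, at 309.7 to 2379 CPM in home cage water, 192.2 to 506.7 in home cage caffeine, 164.8 to 438.6 in learning water and 116.3 to 205.1 in learning caffeine libraries, and their part in the results was not tested.

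Per length of exon, Gabbr1, the GABA-B subunit that binds the transmitter, stood first at 97.6 ± 4.92 CPM per kb (mean ± SD, n = 16), followed by Gabra5 at 90.4 ± 4.94, and their ranges over the libraries overlapped. Slc12a5 came next at 66.4 ± 3.94 CPM per kb, with its highest library (71.4) below the lowest of Gabra5 (79.5). Gad1, the synthesis enzyme found throughout interneurons, was at 47.8 ± 2.97 and Gabbr2, the GABA-B subunit that couples to the G protein, at 44.2 ± 3.30 CPM per kb, neighbours whose ranges overlapped, both below the lowest library of Slc12a5 (57.5).

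The middle of the order went in small steps, and only 1 pair of neighbours did not overlap. Nlgn2, an adhesion protein of inhibitory synapses, was at 38.2 CPM per kb, Shisa7, an auxiliary protein of GABA-A receptors, at 37.0 and Abat, the transaminase that breaks GABA down, at 34.5. The lowest library of Abat (31.6) was above the highest of the next gene, Slc6a11 (29.6), but below the highest of Gad2 (31.71), further down. The astrocytic transporter GAT-3 (Slc6a11), the receptor-anchoring protein Lhfpl4 and the synaptic synthesis enzyme Gad2 lay close together at 27.3, 27.2 and 26.8 CPM per kb. Gabra4, the scaffold gephyrin (Gphn) and the vesicular transporter Slc32a1 followed at 23.3, 21.8 and 20.8, then Gabrb1 at 18.1, Gabra2 at 16.4, Gabrb2 at 14.7, Gabra3 at 14.3 and Gabrd at 11.4. Apart from Abat and Slc6a11, all these neighbours had overlapping ranges.

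Slc12a2, at 8.61 ± 1.47 CPM per kb, overlapped with Gabrd but not with the genes below it. Its lowest library, at 6.46, was above every library of the 3 genes that followed, Gabrg1 at 2.92, Slc6a13 (GAT-2, a transporter of meninges and liver) at 2.83 and Gabrg3 at 2.05. Gabre and Gabrq were barely detected at 0.0495 and 0.0403 CPM per kb, with 2 to 13 and 2 to 31 reads per library. Gabrq did not pass the count filter and was not tested, which left 24 tested genes.

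**Figure D1:**
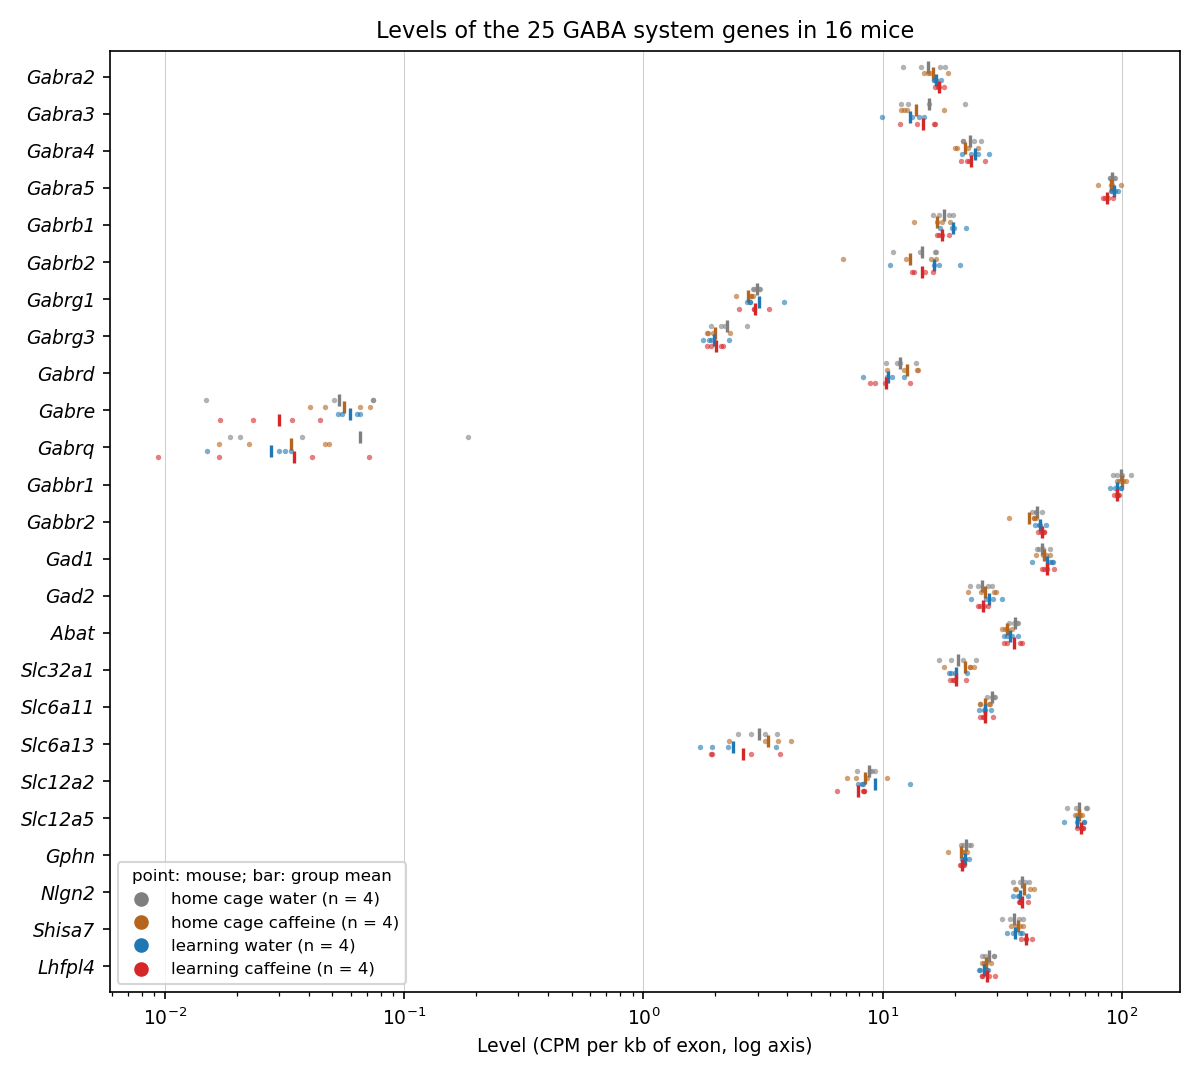
Levels of the 25 genes in CPM per kb of exon on a log axis; each point is 1 mouse, coloured by group, and each bar the mean of a group of 4. Gabbr1 (mean 97.6) and Gabra5 (90.4) were the highest and Gabre (0.0495) and Gabrq (0.0403) the lowest, and for nearly every gene the points of the 4 groups lie on top of each other.

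Within the 11 listed GABA-A subunit genes, Gabra5 held 46.8% of the summed CPM per kb (42.7% to 51.7% over the 16 libraries), and the next, Gabra4, held 12.0%. Gabrb1 held 9.33%, Gabra2 8.52%, Gabrb2 7.51%, Gabra3 7.40% and Gabrd 5.86%, and the shares of these 5 overlapped. The gamma subunits on the list, Gabrg1 and Gabrg3, held 1.51% and 1.06%. The group means of the Gabra5 share lay between 45.8% in learning caffeine and 47.5% in home cage caffeine mice, a gap smaller than the SD over libraries of 2.31 percentage points.

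Ratios per length were computed for 5 pairs of genes and differed in how far they spread. The ratio of Gad1 to Gad2 was 1.79 ± 0.0923 (SD, n = 16; 1.63 to 1.91), and that of Gabbr1 to Gabbr2, the obligate partners of the GABA-B receptor, was 2.22 ± 0.239 (1.97 to 2.90). The Gabbr1 to Gabbr2 ratio was 2.222 to 2.903 in home cage caffeine and 1.967 to 2.159 in learning caffeine mice, without overlap. Gabbr2 alone did not overlap in this comparison either, as was so for 10.9% of all genes tested, and no such share was computed for ratios. The home cage caffeine mice include mouse 17, whose Gabbr2 level of 225.44 CPM was far below that of the others. In water mice the ratio was 2.063 to 2.51 in the home cage and 1.976 to 2.282 after learning, with overlap, and these ratios were not tested. The ratio of the chloride exporter Slc12a5 to the importer Slc12a2 was wider, at 7.92 ± 1.39 (4.43 to 10.7). The group means of this ratio were 7.65 ± 1.08 in home cage water, 7.95 ± 1.21 in home cage caffeine, 7.39 ± 2.01 in learning water and 8.69 ± 1.32 in learning caffeine mice (n = 4 each), and the ranges of the 4 groups overlapped. The ratio of the transporters Slc6a11 to Slc6a13 also spread widely, at 10.4 ± 3.04 (6.80 to 16.6), and that of Gabra5 to Gabra2 was 5.56 ± 0.768 (4.64 to 7.72).

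Changes between groups were tested in 7 comparisons: caffeine against water in the home cage and after learning, learning against home cage under water and under caffeine, the difference between the learning responses, and the mean learning and mean caffeine effects. A gene was called at an adjusted p under 0.1 by edgeR's quasi-likelihood test, with Benjamini-Hochberg adjustment over all 17830 genes tested. None of the 24 tested genes of GABA signalling was called in any of the 7 comparisons, and DESeq2's Wald test called none either. Of all genes tested, 0% was called for caffeine in the home cage, 0% for caffeine after learning, 0.97% for learning under water, 5.28% for learning under caffeine, 0% for the difference between the learning responses, 14.5% for the mean learning effect and 0% for the mean caffeine effect. At an unadjusted p under 0.05, the genes of the list numbered 0, 2, 0, 3, 0, 2 and 1 in that order, against 3.57%, 3.93%, 11.8%, 18.8%, 3.63%, 25.5% and 4.07% of all genes tested.

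**Figure D2:**
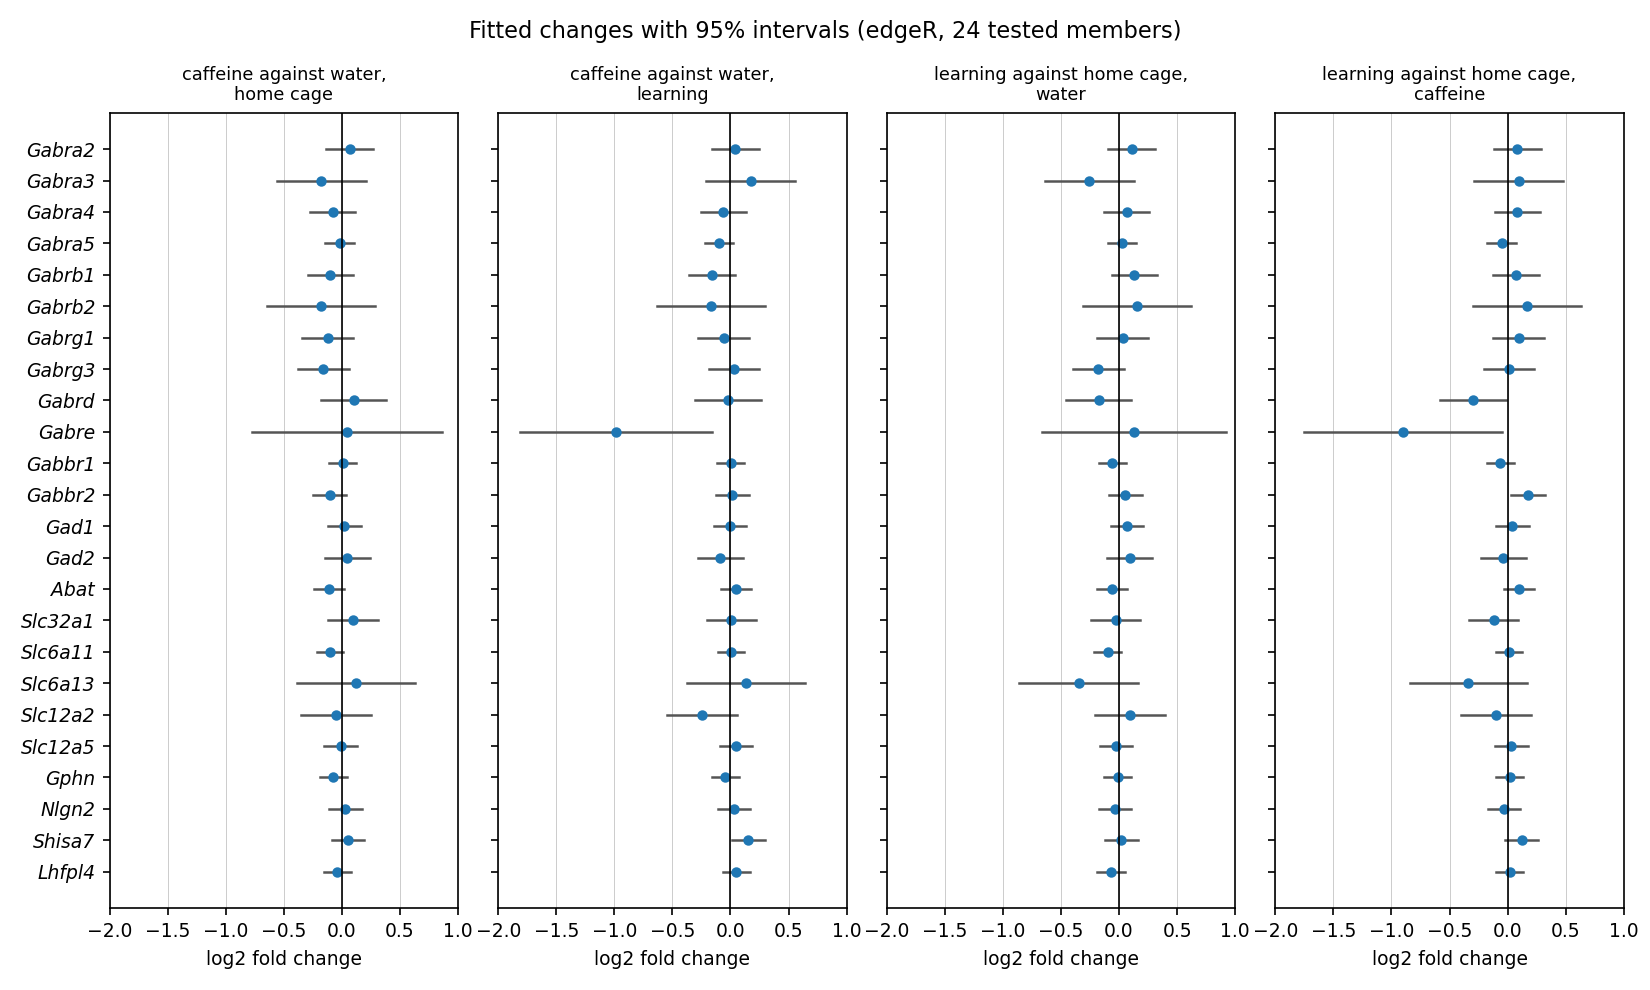
Log2 fold change of the 24 tested genes in the 4 comparisons of 2 groups; points are estimates and bars their 95% intervals, with a line at 0. Most intervals cross 0 and are narrow, and Gabre (-0.98 for caffeine after learning) has the widest.

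For caffeine in the home cage, the 95% interval of the log2 fold change lay within ±0.5 (1.41-fold) for 20 of the 24 genes, against 69% of all genes tested, and Gabra3, Gabrb2, Gabre and Slc6a13 were the exceptions. The numbers were 19 for caffeine after learning, 20 for learning under water and 20 for learning under caffeine, against 69.4%, 65.7% and 64% of all genes. Within the tighter bound of ±0.25 (1.19-fold) were 12, 13, 13 and 11 genes, against 39.6%, 41.4%, 33.6% and 29.6% of all genes. Among them were Gabbr1, Gabra5, Gad1, Abat, Slc6a11, Slc12a5, Gphn, Nlgn2 and Lhfpl4 in all 4 comparisons. Smaller changes may have gone undetected with 4 mice a group. The shares were not matched for read depth, on which the width of an interval depends. A mean of at least 20 CPM was reached by 22 genes of the list, against 8015 of the 17830 genes tested.

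Caffeine in the home cage left the listed genes with a median log2 fold change of -0.03 (-0.0031 over all genes tested), 10 of them above 0 and 14 below (48.7% of all genes above 0). The group means of the receptor subunits were close. Gabra5 was at 272 ± 7.04 CPM in home cage water and 268 ± 24.4 CPM in home cage caffeine mice (SD, n = 4), and its log2 fold change was -0.02 (SE 0.06, adjusted p = 0.997 by edgeR). Among the genes of GABA metabolism and transport, Abat was at 276 ± 10.0 and 256 ± 10.2 CPM and Slc6a11 at 145 ± 5.05 and 135 ± 7.14 CPM, with log2 fold changes of -0.11 (SE 0.06) and -0.10 (SE 0.05) and an adjusted p of 0.997 for both by edgeR. Gad1, Gad2 and Slc32a1, which mark GABA-releasing neurons, had log2 fold changes of 0.02, 0.04 and 0.10 (SE 0.07, 0.09 and 0.10).

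The 2 groups of 4 home cage mice did not overlap for 1 gene of the list, Gabrg1, a gamma subunit also known from glia. It measured 22.55, 22.84, 24.02 and 24.21 CPM in home cage water and 22.09, 22.15, 22.54 and 19.2 CPM in home cage caffeine mice. The groups touched, with 22.54 CPM as the highest caffeine and 22.55 CPM as the lowest water value. The log2 fold change of Gabrg1 was -0.12 (SE 0.11, unadjusted p = 0.252, adjusted p = 0.997 by edgeR), and 1.99% of all genes tested had groups that did not overlap in this comparison.

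Gabrb2, a beta subunit common in synaptic receptors, and Gabra3, an alpha subunit, had the lowest estimates for caffeine in the home cage, and both estimates moved in either direction with the mouse left out. Gabrb2 measured 91.46, 105.42, 106.43 and 70.22 CPM in home cage water and 79.4, 101.07, 105.98 and 43.61 CPM in home cage caffeine mice. The groups overlapped, and the value of 43.61 CPM belonged to home cage caffeine mouse 17, the lowest of all 16. The log2 fold change of Gabrb2 was -0.18 (SE 0.22) over all mice and 0.03 without that mouse, but -0.33 without home cage caffeine mouse 14.
Gabra3 measured 87.09, 46.67, 61.26 and 50.05 CPM in home cage water and 49.48, 46.88, 48.45 and 71.23 CPM in home cage caffeine mice, so that the highest value of each group stood well above its other 3. The log2 fold change of Gabra3 was -0.18 (SE 0.18) over all mice, 0.04 without home cage water mouse 6 and -0.34 without home cage caffeine mouse 17.

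Caffeine in learning mice gave a median log2 fold change of 0.002 over the list (-0.0043 over all genes tested), with 13 genes above 0 and 11 below (48.1% of all genes above 0). Shisa7, whose protein binds GABA-A receptors and affects their trafficking and kinetics, measured 219.09, 249.63, 253.79 and 232.11 CPM in learning water and 280.92, 263.63, 264.93 and 252.04 CPM in learning caffeine mice. The groups overlapped by 1 value on each side. Its log2 fold change was 0.15 (SE 0.07, unadjusted p = 0.0331, adjusted p = 0.999 by edgeR), and in the home cage it was 0.05 (SE 0.07). Averaged over both conditions, the log2 fold change of Shisa7 under caffeine was 0.10 (SE 0.05, adjusted p = 0.985 by edgeR), also not called.

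Gabre, the epsilon subunit, was the 1 gene of the list whose learning water and learning caffeine mice did not overlap, against 2.6% of all genes tested. It measured 0.30, 0.25, 0.31 and 0.26 CPM in learning water and 0.16, 0.21, 0.08 and 0.11 CPM in learning caffeine mice. These values rest on at most 13 reads in a library. Its log2 fold change was -0.98 (SE 0.39, unadjusted p = 0.0227, adjusted p = 0.999 by edgeR), and its home cage values spread as widely, from 0.07 to 0.35 CPM in home cage water mice. Learning under caffeine, a comparison with the same learning caffeine mice, gave Gabre a log2 fold change of -0.9 (adjusted p = 0.239 by edgeR).

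Slc12a2, the chloride importer NKCC1, had the lowest estimate for caffeine after learning among the genes above 1 CPM. It measured 141.76, 89.79, 85.97 and 90.26 CPM in learning water and 90.81, 70.56, 91.21 and 91.75 CPM in learning caffeine mice. The value of 141.76 CPM came from learning water mouse 24, the highest of all 16, while the other 3 water mice lay among the caffeine mice. The log2 fold change of Slc12a2 was -0.25 (SE 0.14, adjusted p = 0.999 by edgeR), and -0.04 (SE 0.11) without that mouse.

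Slc12a2 is also made by oligodendrocytes, and the 8 oligodendrocyte markers were also high in that mouse. Their summed level was 12530 CPM in learning water mouse 24 and between 5260 and 9358 CPM in the other 15 mice. The next highest sum, 9358 CPM, was that of home cage caffeine mouse 9, which had the next highest Slc12a2 level, 113.48 CPM. The lowest sum, 5260 CPM, was that of learning caffeine mouse 27, which had the lowest Slc12a2 level, 70.56 CPM. None of the 8 markers was at 0 in all libraries, the group ranges of their sum were 5462 to 7771 CPM in home cage water, 5511 to 9358 in home cage caffeine, 5394 to 12530 in learning water and 5260 to 7380 in learning caffeine mice, and their part in the Slc12a2 values was not tested. Choroid plexus also makes Slc12a2, and the library with the highest choroid plexus sum, 2379 CPM in home cage water mouse 20, had a Slc12a2 level of 98.97 CPM.

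**Figure D3:**
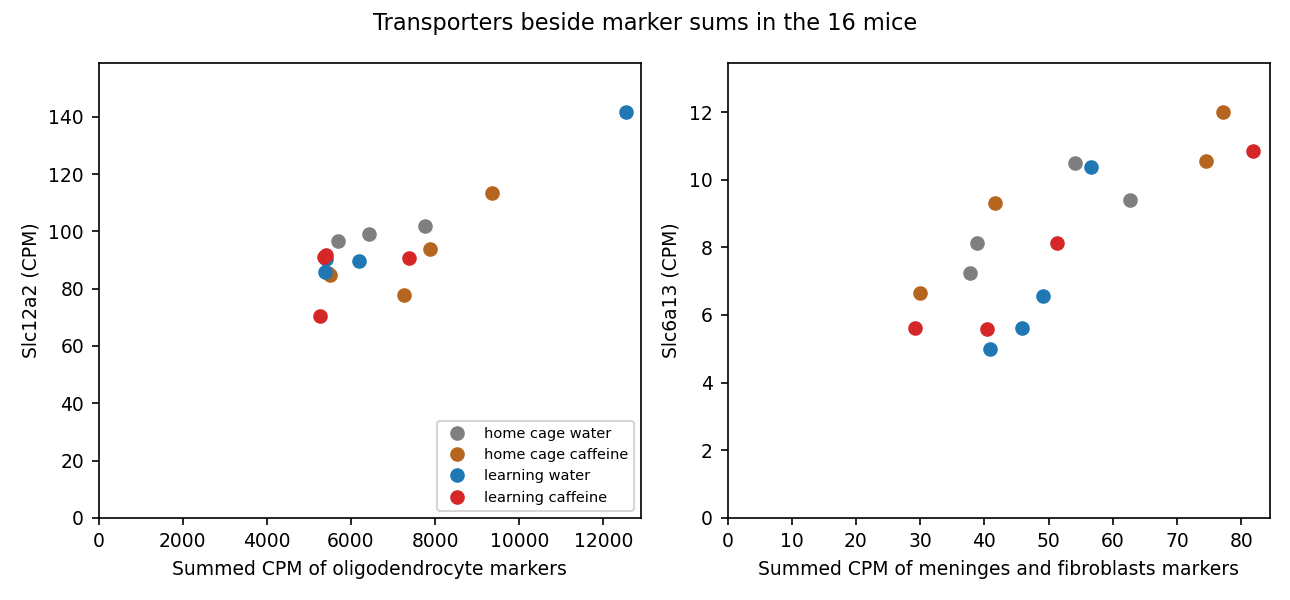
Slc12a2 (CPM) against the summed CPM of 8 oligodendrocyte markers, and Slc6a13 (CPM) against the summed CPM of 8 meninges and fibroblast markers; each point is 1 of the 16 mice, coloured by group. The mouse with the highest oligodendrocyte sum (12530) also had the highest Slc12a2 (141.76), and Slc6a13 reached 12.01 and 10.85 in the mice with the 2 highest meninges sums (77.2 and 81.82).

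Learning under water gave a median log2 fold change of 0.003 over the list (-0.0055 over all genes tested), with 12 genes above 0 and 12 below (48.5% of all genes above 0). The home cage and learning groups overlapped for every gene of the list, against 6.99% of all genes tested without overlap. Gad1 was at 355 ± 20.4 CPM in home cage water and 372 ± 33.4 CPM in learning water mice, and Gad2 at 153 ± 14.5 and 164 ± 20.2 CPM, with log2 fold changes of 0.07 (SE 0.07) and 0.09 (SE 0.09). The exporter Slc12a5 was at 496 ± 43.5 and 487 ± 42.2 CPM (log2 fold change -0.03, SE 0.07), and the smallest adjusted p of the list was 0.49 by edgeR.

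Learning under caffeine, where 5.28% of all genes tested were called, gave a median log2 fold change of 0.018 over the list (-0.0122 over all genes tested), with 15 genes above 0 and 9 below (47.1% of all genes above 0). Gabbr2, the signalling subunit of the GABA-B receptor, was the 1 gene whose groups did not overlap, against 10.9% of all genes tested. It measured 288.26, 292.88, 288.14 and 225.44 CPM in home cage caffeine and 315.92, 306.46, 316.02 and 297.6 CPM in learning caffeine mice. The learning mice were all above the home cage mice, but the gap between the groups was narrow next to the distance of mouse 17, at 225.44 CPM, from the other 3.

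For Gabbr2 the log2 fold change was 0.18 (SE 0.07, unadjusted p = 0.0194, adjusted p = 0.177 by edgeR). It was 0.10 without home cage caffeine mouse 17. In water mice Gabbr2 was at 294 ± 11.3 CPM in the home cage and 306 ± 13.4 CPM after learning, and the log2 fold change was 0.05 (SE 0.07). The difference between the learning responses was 0.12 (SE 0.10, adjusted p = 1 by edgeR). Its partner Gabbr1 had a log2 fold change of the other sign, -0.06 (SE 0.06) under caffeine and -0.06 (SE 0.06) under water.

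Gabrd, the delta subunit of extrasynaptic receptors, which in the hippocampus is best known from dentate granule cells, had the lowest adjusted p of the list for the mean learning effect. It measured 33.94, 33.1, 39.59 and 29.69 CPM in home cage water and 30.01, 35.33, 40.47 and 40.23 CPM in home cage caffeine mice. In learning mice it measured 23.76, 30.08, 31.53 and 35.37 CPM under water and 25.37, 29.4, 26.63 and 37.43 CPM under caffeine. Of the 8 learning mice, 4 lay below the lowest home cage mouse (29.69 CPM), but 1 mouse of each learning group lay among the higher home cage values, so the groups overlapped.

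Gabrd had a log2 fold change of -0.24 (SE 0.10, unadjusted p = 0.0224, adjusted p = 0.126 by edgeR) for the mean learning effect, at a threshold that 14.5% of all genes passed. It was -0.18 (SE 0.14) under water and -0.30 (SE 0.13, adjusted p = 0.237 by edgeR) under caffeine, and the difference between them was -0.12 (SE 0.19). For the mean learning effect, the adjusted p of Gabrd ran from 0.0604 to 0.274 by edgeR over the 16 fits that left out 1 library. It fell to 0.0981 without learning water mouse 38 and to 0.0604 without learning caffeine mouse 40. With genes of at least 1 count in total it fell to 0.0985, so that the call depended on these choices. The 6 striatal markers were also lower in learning mice, with sums of 70.5 to 72.6 CPM under water and 65.31 to 78.59 under caffeine against 78.44 to 91.38 and 75.07 to 91.04 CPM in the home cage, and their part in the Gabrd values was not tested. Gabbr2 had a mean learning effect of 0.11 (SE 0.05, adjusted p = 0.146 by edgeR), with adjusted p 0.0803 without home cage water mouse 8 and 0.0836 without home cage caffeine mouse 2. Over the 16 fits that left out 1 library, the adjusted p of Gabbr2 ran from 0.0803 to 0.23 by edgeR.

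Slc6a13, the transporter GAT-2, had the lowest log2 fold change of the mean learning effect among the genes above 1 CPM, -0.34 (SE 0.17, adjusted p = 0.216 by edgeR). It measured 8.14, 10.48, 7.24 and 9.4 CPM in home cage water and 6.64, 10.56, 12.01 and 9.32 CPM in home cage caffeine mice. In learning mice it measured 10.39, 5, 6.56 and 5.6 CPM under water and 5.6, 8.14, 10.85 and 5.57 CPM under caffeine. In each learning group 1 mouse, at 10.39 and 10.85 CPM, stood among the high home cage values.

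Without learning water mouse 24, the mean learning effect on Slc6a13 was -0.48 (adjusted p = 0.059 by edgeR) and passed the threshold. Over the 16 fits that left out 1 library, its adjusted p ran from 0.059 to 0.362 by edgeR. The 8 markers of meninges and fibroblasts summed to 37.83 to 62.73 CPM in home cage water, 30.04 to 77.2 in home cage caffeine, 40.84 to 56.65 in learning water and 29.21 to 81.82 in learning caffeine mice, and none was at 0 in all libraries. In learning mice, the highest Slc6a13 level of each group was in the mouse with the highest sum of that group, 56.65 CPM for mouse 24 and 81.82 CPM for mouse 30, and the part of these cells in the Slc6a13 values was not tested.

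**Figure D4:**
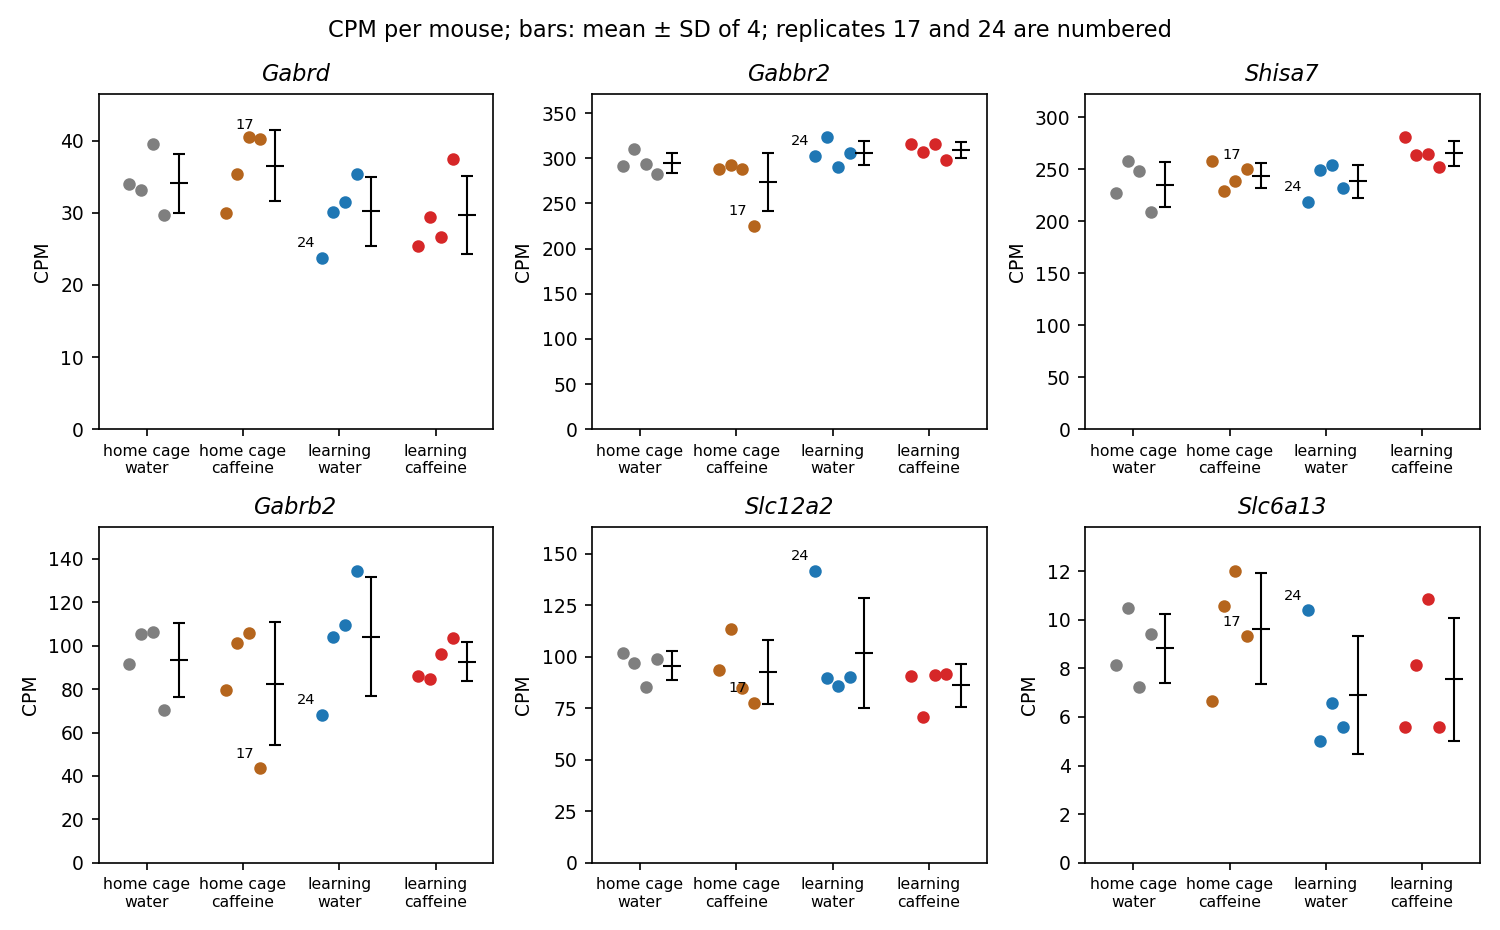
CPM of Gabrd, Gabbr2, Shisa7, Gabrb2, Slc12a2 and Slc6a13 in each of the 16 mice, with the mean ± SD of each group of 4; home cage caffeine mouse 17 and learning water mouse 24 are numbered. Mouse 17 is the lowest for Gabbr2 (225.44) and Gabrb2 (43.61), and mouse 24 the highest for Slc12a2 (141.76) and the lowest for Gabrd (23.76).

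The difference between the learning responses under caffeine and under water passed the threshold for none of the 24 genes. The median difference was 0.012 on the log2 scale (0.0024 over all genes tested), and 14 genes were above 0 and 10 below (50.8% of all genes above 0). For the mean learning effect 12 genes were above 0 and 12 below (46% of all genes above 0), and for the mean caffeine effect 10 above and 14 below (47.7% of all genes above 0). The difference was -0.03 for Gad1 (SE 0.09), 0.06 for Slc12a5 (SE 0.09) and -0.08 for Gabra5 (SE 0.08). Because this difference adds the error of 4 groups, its 95% interval lay within ±0.25 for 5 genes only, Gabbr1, Gabra5, Gad1, Gphn and Nlgn2, and within ±0.5 for 18.

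The 4 genes of the inhibitory postsynaptic site had coefficients of variation over the 16 libraries of 4.92% (Gphn), 4.95% (Lhfpl4), 6.29% (Nlgn2) and 7.62% (Shisa7). Gphn, which anchors receptors at the synapse, was at 83.7 ± 3.92, 79.5 ± 6.34, 83.0 ± 2.59 and 80.5 ± 1.64 CPM in the order home cage water and caffeine, then learning water and caffeine. Lhfpl4, which holds receptors to neuroligin-2, was at 162 ± 9.53, 157 ± 6.18, 154 ± 6.62 and 159 ± 9.55 CPM in the same order, and Nlgn2 at 222 ± 14.3, 226 ± 21.03, 216 ± 12.8 and 221 ± 9.65 CPM. Shisa7, given in every learning mouse above, was at 236 ± 21.9, 244 ± 12.4, 239 ± 16.1 and 265 ± 11.9 CPM. The coefficient of variation of the 22 genes of the list with a mean of at least 20 CPM ran from 4.92% to 22.7% with a median of 8.53%, against a median of 7.25% over all 8015 such genes.

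Home cage caffeine mouse 17 and learning water mouse 24 accounted for most of the low extremes. Mouse 17 had the lowest level of 16 for 9 genes, Abat, Gabbr2, Gabra4, Gabra5, Gabrb1, Gabrb2, Gabrg1, Gad2 and Gphn, and mouse 24 for 8, Gabbr1, Gabra3, Gabrd, Gabrg3, Gad1, Lhfpl4, Slc12a5 and Slc6a11. Mitochondrial genes took 4.49% of the counts of mouse 17 and 3.23% to 3.89% of those of the other 15 mice. Without these 2 mice, a choice made after the data were seen, Slc6a13 was called for the mean learning effect (-0.48, adjusted p = 0.078 by edgeR) and no other gene of the list in any of the 7 comparisons.

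**Figure D5:**
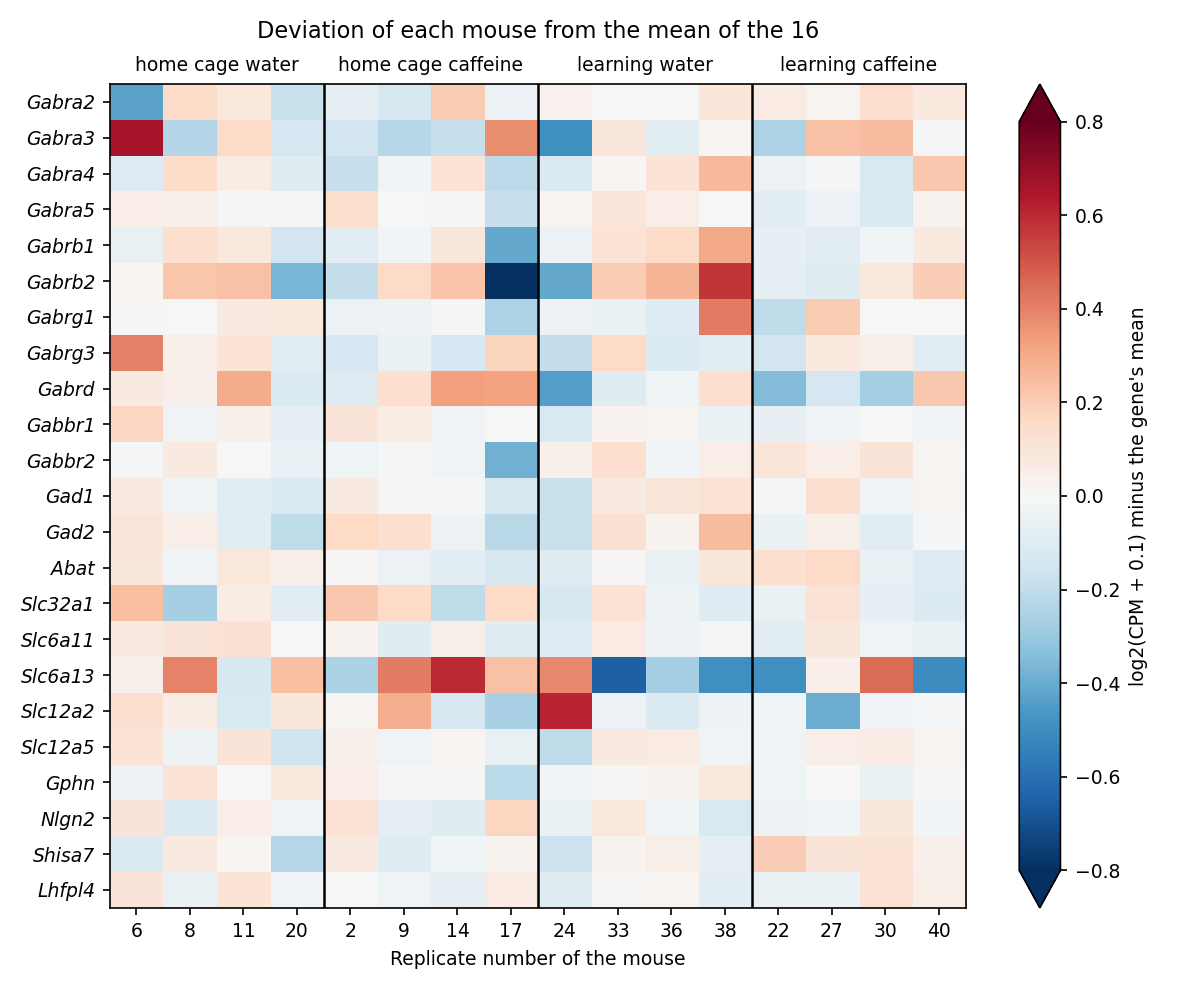
Deviation of each mouse from the gene's mean over 16 mice, as log2(CPM + 0.1), for 23 genes without Gabre and Gabrq; columns are mice by group, red is higher and blue lower, and colours saturate at the ends of the scale. Blue cells gather in the columns of home cage caffeine mouse 17, lowest for 9 genes, and learning water mouse 24, lowest for 8, rather than in whole groups.

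The wider pathway was read from 5 lists of other genes, tested in the same fit. For caffeine in the home cage, caffeine after learning, their mean, the difference between the learning responses, and learning under water, no gene of these lists was called. The 8 partners of GABA synthesis and breakdown and the 9 auxiliary and trafficking genes of the GABA-B receptor had no called gene in any comparison, where at most 14.5% of all genes tested were called, so that 0 in lists this short is near the background.

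Of 15 genes of GABA-A receptor trafficking and the inhibitory synapse, 1 rose with learning, Insyn2a, which codes for a protein of the inhibitory postsynaptic density. It was at 4.72 ± 0.470 CPM in home cage water, 4.50 ± 0.415 in home cage caffeine, 5.75 ± 0.359 in learning water and 6.00 ± 0.474 in learning caffeine mice (SD, n = 4). Its log2 fold change was 0.35 for the mean learning effect (adjusted p = 0.00785 by edgeR) and 0.41 under caffeine (adjusted p = 0.0414). The list held 6.67% called genes in both comparisons, against 14.5% and 5.28% of all genes tested.

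Of 17 tested genes of chloride transport and its kinases, 4 were called for the mean learning effect, 23.5% against 14.5% of all genes tested. Car7, the neuronal carbonic anhydrase that supplies the bicarbonate which GABA-A channels also conduct, was at 25.7 ± 3.82 and 28.8 ± 6.61 CPM in home cage water and caffeine mice and at 19.6 ± 1.78 and 21.1 ± 2.16 CPM in learning water and caffeine mice, a log2 fold change of -0.43 (adjusted p = 0.013 by edgeR). Under caffeine alone Car7 was the 1 called gene of the list (-0.46, adjusted p = 0.0809 by edgeR), 5.88% against 5.28% of all genes tested. The cotransporter genes Slc12a7 and Slc12a9 fell by 0.23 and 0.17 on the log2 scale (adjusted p just under the threshold and 0.0938 by edgeR), and Slc4a8, a sodium-driven chloride bicarbonate exchanger, rose by 0.17 (adjusted p = 0.0417). Slc12a5 (0.003, SE 0.05) and Slc12a2 (-0.005, SE 0.10), the cotransporters of the main list, did not pass it.

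Of 20 interneuron markers, 2 were called for the mean learning effect, 10% against 14.5% of all genes tested. Kit, a receptor tyrosine kinase, rose by 0.25 on the log2 scale (adjusted p = 0.0486 by edgeR), and Cck, the neuropeptide cholecystokinin, fell by 0.17 (adjusted p = 0.0942). Under caffeine alone Kit was the 1 called marker (0.34, adjusted p = 0.0961 by edgeR), 5% against 5.28% of all genes tested. The summed level of the 20 markers was 1251 ± 88.7 CPM in home cage water, 1312 ± 78.6 in home cage caffeine, 1204 ± 57.6 in learning water and 1257 ± 50.6 in learning caffeine mice, with overlapping ranges.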

How the data were processed

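RNA of the dorsal hippocampus was turned into TruSeq stranded mRNA libraries by the authors, who sequenced single-end reads of 50 bases, aligned them to mm10 (STAR, Bowtie 2), retained unique alignments and summed them over Ensembl 90 genes using HTSeq-count 0.6.1p1 (union mode). The deposited values are raw read counts per gene, without normalization, pooling or molecular identifiers. Of 35328 genes, 35247 were matched to GENCODE M21 (GRCm38), which also gave the exon lengths.

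Testing used edgeR 4.0.16 in R 4.3.3: TMM scaling, the filterByExpr filter (17830 genes), 1 mean per group over all 16 libraries, quasi-likelihood tests and Benjamini-Hochberg adjustment, where a call needed an adjusted p below 0.1, as in the study. The scripts were tested on simulated data. Library totals of 23078094 to 49949281 counts and 4 mice a group gave the listed genes a median SE of 0.09 on the log2 scale in comparisons of 2 groups. Mice are numbered as in the labels, and a group's mice are separate animals.

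The 25 genes and all lists were chosen with earlier results of these data known. All 25 were accounted for. Genes called or without overlap between 2 groups were to be given in every mouse. Those without overlap, Gabrg1, Gabre and Gabbr2, were given mouse by mouse only for the groups of that comparison. Other genes were added after their values were seen. Of the pathway lists, called genes were named, at most 4 a list. The alternatives were DESeq2 1.42.0 (size factors, or the Wald test), the 8 libraries of a comparison alone, a minimum of 1 count in total or of 10 in every library, the stricter threshold of 0.05 on the adjusted p, robust empirical Bayes, thinning to 23078094 counts, a length and GC correction, and each library left out.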

Additional observations from a re-analysis of the deposited data

Results flagged for a closer look

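Each of the 25 genes was looked at in each of the 4 groups, 100 groups of 4 mice, for a mouse whose gap to the nearest other, relative to the range of the group, was past Dixon's 95% critical value. Such a mouse was found in 10 groups, and chance gives about 1 in 20 groups.

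Home cage caffeine mouse 17 gave 3 of them. Its Gabbr2 level was 225 CPM against 288 to 293 CPM in the other 3 mice, its Gabrg1 level 19.2 CPM against 22.1 to 22.5 CPM, and its Gabra3 level 71.2 CPM against 46.9 to 49.5 CPM. Home cage caffeine mouse 14 stood apart for Slc32a1, at 50.4 CPM against 64.6 to 67.3 CPM.

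Learning water mouse 24 gave 2, with Slc12a2 at 142 CPM against 85.97 to 90.26 CPM and Gad1 at 323 CPM against 382 to 394 CPM. Learning water mouse 38 had Gabrg1 at 30.5 CPM against 21.26 to 22.04 CPM. In learning caffeine mice, mouse 27 had Slc12a2 at 70.6 CPM against 90.8 to 91.8 CPM, and mouse 30 had Nlgn2 at 236 CPM against 215 to 217 CPM. The last was home cage water mouse 8, with Gabrq at 0.988 CPM against 0.103 to 0.198 CPM. No cause of these gaps was tested.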

How the results depend on the processing

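The number of listed genes called stayed at 0 in 6 of the 7 comparisons under each of up to 9 alternatives and in the 16 fits that left out 1 library. For the mean learning effect it was 1 with genes of at least 1 count in total (Gabrd, adjusted p = 0.0985), 1 without home cage caffeine mouse 17 and learning water mouse 24 together (Slc6a13), and from 0 to 1 with 1 library left out: 1 without home cage water mouse 8 or home cage caffeine mouse 2 (Gabbr2), learning water mouse 24 (Slc6a13), learning water mouse 38 or learning caffeine mouse 40 (Gabrd).
Over the fits with 1 library left out, the log2 fold change of the mean learning effect ran from -0.30 to -0.18 for Gabrd, from 0.08 to 0.14 for Gabbr2 and from -0.48 to -0.27 for Slc6a13. For caffeine in the home cage it ran from -0.34 to 0.04 for Gabra3, positive without home cage water mouse 6, and from -0.33 to 0.034 for Gabrb2, positive without home cage caffeine mouse 17 and also 0.034 with both doubted mice left out. The length and GC correction turned the sign of 1 to 7 of the 24 estimates per comparison, none of them above 0.1 in size, and the cause was not tested.
No paired analysis was possible because the labels give every mouse its own number and the groups share none. Over all genes, DESeq2's Wald test called more than edgeR. The filters differed, and their part in the counts was not tested. DESeq2's test was run without edgeR's count filter but with its own, and gave a p-value to 33352 genes against 17830. It called 19, 6, 427, 1561, 6 and 16 genes for caffeine in the home cage, caffeine after learning, learning under water, learning under caffeine, the difference of the learning responses and the mean caffeine effect, against 0, 0, 173, 942, 0 and 0 by edgeR. For the mean learning effect it called 2990 against 2590. With genes of at least 1 count in total, edgeR called 34, 8, 290, 9 and 36 genes for caffeine in the home cage, caffeine after learning, learning under water, the difference and the mean caffeine effect, but fewer for learning under caffeine (793 against 942) and on average (2075 against 2590). The 8 libraries alone gave 85 and 617 for learning under water and under caffeine, and 389 were called for learning under water without both doubted mice. Robust empirical Bayes and thinning each gave 1 for caffeine in the home cage. An adjusted p under 0.05 gave 70, 449 and 1384 for learning under water, under caffeine and on average (173, 942 and 2590 at 0.1), and with 1 library left out these ran at 0.1 from 37 to 312, 382 to 1231 and 1783 to 3191, and those for caffeine from 0 to 33 in the home cage, 0 to 1 after learning and 0 to 24 on average. With 4 mice a group small changes may have gone undetected, and Gabre rests on at most 13 reads a library.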
